A study of Danio rerio with 45 samples.

Results

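The comparison described here set zebrafish blastula explants that received 10 pg of ndr2 mRNA and cycloheximide (CHX) against explants that received the same 10 pg without CHX, both sampled at 6 hours post fertilization (hpf). Libraries were chosen by their titles, which gave 3 libraries in each group and 6 of the 45 libraries of the series. All animals were of the AB strain, and in both groups 1 animal pole cell of the 128-cell embryo had received the ndr2 mRNA. CHX was added 20 min after injection, at a concentration given in the labels as 50 µg/µl, and was kept on until harvest. Explants of the animal pole region were cut from the blastula and cultured in Dulbecco's Modified Eagle Medium. The series also holds uninjected controls and doses of 2, 6 and 10 pg at 4, 5 and 6 hpf, each in 3 libraries. The 3 uninjected control libraries of 6 hpf served here as the level without ndr2, and every library with CHX used here carries 10 pg of ndr2, so CHX without ndr2 was not analysed here. The labels do not say whether replicates came from separate clutches, so the p-values measure the spread between these libraries, which may be technical.

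Nodal ligands such as Ndr2 (Cyclops) and Ndr1 (Squint) are TGF-beta family proteins that bind Activin receptors with the co-receptor Tdgf1 (One-eyed pinhead) and act through Smad2, Smad3 and partners such as Foxh1. They pattern the mesoderm and endoderm of the early zebrafish embryo, and they induce their own inhibitors, the Lefty proteins. CHX stops elongation by the ribosome, and it is used to ask which genes respond to a signal through proteins that the cell already holds. The fish embryo at these ages is also moving from RNAs stored in the egg to RNAs made by its own genome, a switch that relies on proteins translated after fertilization.

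Levels are given as CPM, the counts of a gene relative to the library total, scaled by the trimmed mean of M values (TMM), in the order of replicates 1, 2 and 3. Changes are log2 ratios with the standard error (SE) of the fit. A gene was called higher or lower at an adjusted p below 0.05 in edgeR's quasi-likelihood test, which gave all adjusted p-values below. The 6 libraries held 20959131 to 24958436 counts, so levels well below 1 CPM rested on few reads. In libraries with CHX the TMM factors were 1.18 to 1.29, against 0.788 to 0.87 without it. The 10 most abundant genes took 3.11% to 3.34% of counts with CHX and 7.53% to 8.5% without. Replicate 1 with CHX stood apart from its group. Of 10974 genes at 5 CPM or more, it was over 2-fold above both other CHX libraries in 355 and below both in 130, whereas the other replicates of the 6 libraries were above in 36 to 167 and below in 110 to 174. Values without that library, or without another, are given beside the results that moved most.

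CHX changed the level of 56.2% of the genes tested. Of 21075 genes tested, 6120 (29.0%) were called higher with CHX and 5726 (27.2%) lower, and 10390 genes had too few counts for a test. The median change over all tested genes was 0.12, with quartiles of −1.12 and 1.32. Changes were large on both sides: 2864 genes (13.6%) rose and 2726 (12.9%) fell by at least 2 on the log2 scale. Libraries of the groups did not overlap in 7171 genes on the higher side (34.0%) and in 6540 on the lower side (31.0%). With library totals in place of TMM the median over all genes moved to 0.68, and 8706 genes were called higher and 3729 lower, so each change below is to be read against the median of its scaling. These are bulk explants, and fewer cells of a type and less RNA per cell cannot be told apart.

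The injected gene was far above the uninjected level in both groups. ndr2 stood at 18.2, 28.5 and 17.9 CPM without CHX and at 20.8, 27.3 and 15.8 CPM with CHX, against 0.306, 0.471 and 0.585 CPM in uninjected controls. The groups with and without CHX overlapped. The change with CHX was −0.01 ± 0.45 and was not called (adjusted p = 0.981). Reads of the injected mRNA and of the embryo's own ndr2 cannot be told apart in these counts. The counts measure ndr2 RNA and not the protein, so similar RNA levels do not show similar amounts of ligand. CHX was added after the injection, and whether it lowered the amount of ligand made from the injected mRNA was not tested.

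Of the 6 tested Nodal ligands and Lefty inhibitors, 1 was called higher with CHX and 2 lower, where 29.0% and 27.2% of all genes were. The second zygotic ligand, ndr1, stood at 10.2, 11.5 and 4.92 CPM without CHX and at 17.1, 11.0 and 11.1 CPM with it. These ranges overlapped, and the change of 0.56 ± 0.53 was not called (adjusted p = 0.377). In controls ndr1 was at 0.204 to 0.638 CPM. The maternal partner of both ligands, gdf3 (Vg1), rose from 93.3, 95.2 and 51.4 CPM to 302, 255 and 218 CPM, a change of 1.69 ± 0.24 (adjusted p = 3.22e-07). All 3 libraries with CHX lay above all 3 without it.

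Both Lefty genes, which encode the secreted feedback inhibitors of Nodal, fell with CHX but stayed above the uninjected level. lft1 stood at 19.2, 30.8 and 24.5 CPM without CHX and at 8.48, 5.19 and 3.74 CPM with it, a change of −2.10 ± 0.56 (adjusted p = 0.00191). lft2 went from 30.5, 27.7 and 16.5 CPM to 4.45, 3.67 and 1.46 CPM, a change of −2.96 ± 0.52 (adjusted p = 1.11e-05). Groups did not overlap for either gene. Against controls, in which lft1 was at 0.106 to 0.282 CPM, the libraries with CHX were still higher by 4.82 for lft1 (adjusted p = 1.71e-06) and by 4.05 for lft2 (adjusted p = 4.48e-06).

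To follow the Nodal response as a whole, the 47 genes called higher with 10 pg than in controls at 5 hpf (0.223% of genes tested) were read at 6 hpf, in libraries that did not choose them. At 6 hpf 44 of the 47 were again called higher with 10 pg than in controls, where 0.474% of all genes were. With CHX, 27 of the 47 were called lower (57.4%), 0 were called higher and 20 were not called. Of all genes 27.2% were lower and 29.0% higher. Their median change was −1.47, with quartiles of −2.89 and −0.90, beside 0.12 for all genes. Genes that rose with age in uninjected controls, described below, had the same median of −1.47, and 67.5% of them were called lower. All libraries with CHX lay below all without it in 32 of the 47, and they lay above in 1, beside 31.0% and 34.0% of all genes. Against the uninjected controls of 6 hpf, with which 28.4% of all genes were called higher and 26.4% lower in explants with CHX, 33 of the 47 were still called higher and 3 were called lower. Both comparisons share the libraries with CHX, so their values are only set side by side. The part of a change in the amount of Nodal ligand in these values, and in the patterns below, was not tested. Summed over the 47 genes, the level was 839 to 864 CPM in controls, 3764 to 6429.7 CPM with 10 pg and 1637 to 2914 CPM with 10 pg and CHX.

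**Figure D1:**
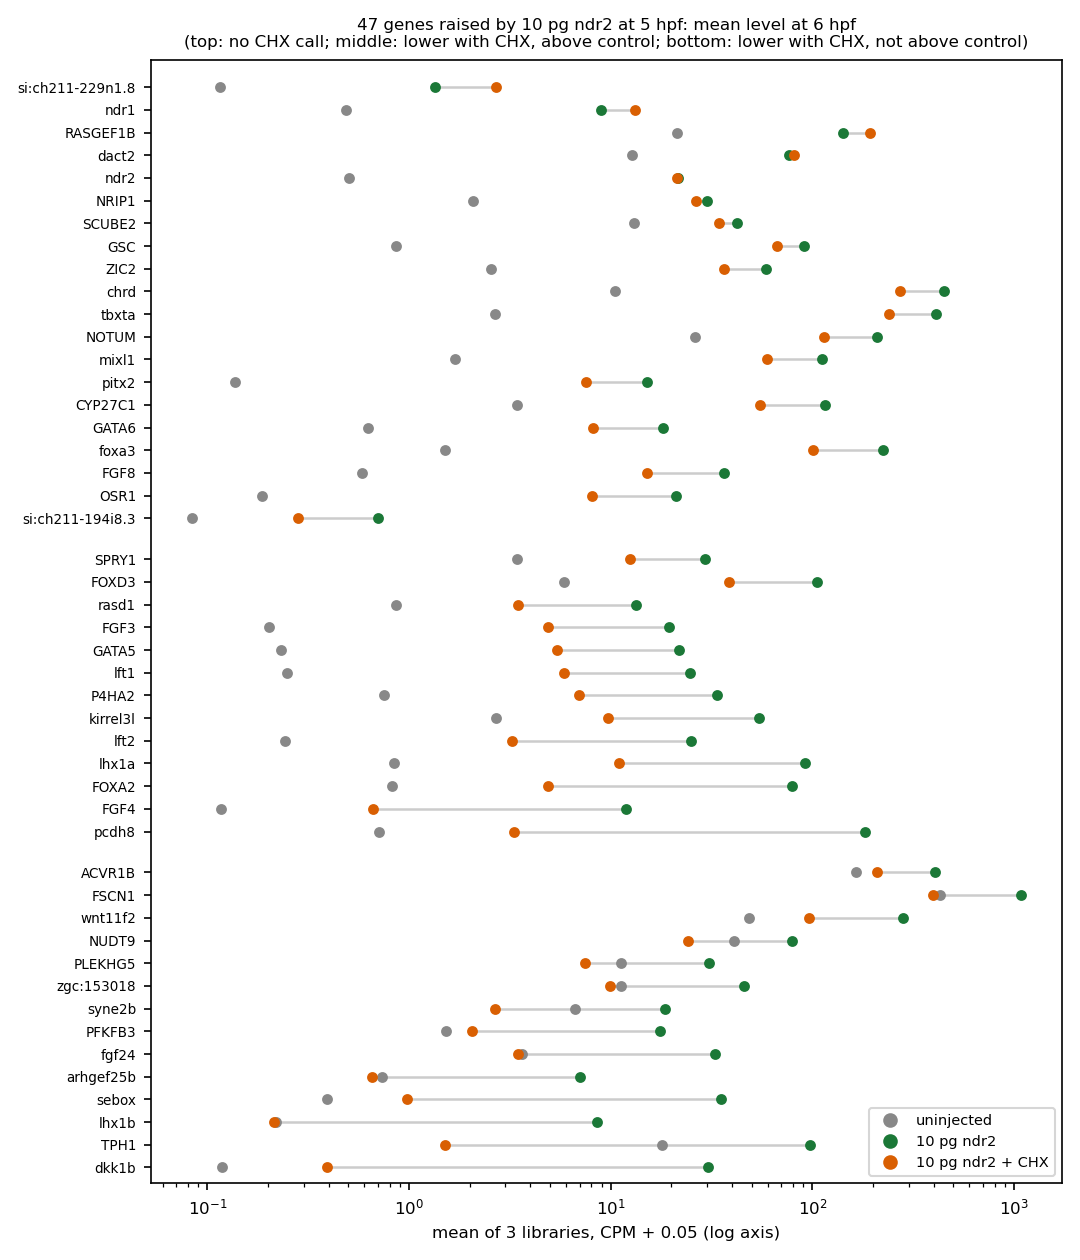
Mean CPM of 3 libraries at 6 hpf for each of the 47 Nodal-induced genes on a log axis with an offset of 0.05 CPM, for controls, 10 pg, and 10 pg with CHX, with a grey line joining the groups with and without CHX. From top to bottom stand the 20 genes with no call between those groups, the 13 called lower with CHX and called above controls, and the 14 called lower and not called above controls.

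The genes fell into 3 patterns. In the first, 20 genes showed no called change with CHX and all 20 were above controls. This set held the organizer genes GSC (goosecoid, a repressor of the prechordal plate) and chrd (chordin, a Bmp antagonist). GSC stood at 84.4, 129.6 and 57.0 CPM without CHX and at 110.0, 49.1 and 40.2 CPM with it, a change of −0.44 ± 0.58 (adjusted p = 0.53), against 0.408 to 1.60 CPM in controls. chrd stood at 383, 661 and 307 CPM without CHX and at 369, 179 and 271 CPM with it, a change of −0.72 ± 0.67 (adjusted p = 0.364), against 8.45 to 13.2 CPM in controls. For both genes the groups overlapped and no library came near the controls. Without replicate 1 with CHX the change of GSC was −1.02 (adjusted p = 0.195). A missed threshold does not show equal levels: the errors allow falls of over 2-fold for each.

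Regulators of mesoderm and endoderm shared this pattern. tbxta (no tail, the fish Brachyury) stood at 357, 543 and 333 CPM without CHX and at 358, 146 and 215 CPM with it, a change of −0.78 ± 0.75 (adjusted p = 0.385). mixl1, a homeobox gene of the mesendoderm, stood at 108, 167 and 62.9 CPM without CHX and at 66.5, 50.0 and 61.4 CPM with it, a change of −0.92 ± 0.60 (adjusted p = 0.195). foxa3, a forkhead gene of the prechordal plate and endoderm, stood at 204, 309.7 and 161 CPM without CHX and at 163, 63.6 and 74.8 CPM with it, a change of −1.16 ± 0.70 (adjusted p = 0.157). In each of these 3 genes replicate 1 was the highest library with CHX. Fitted from the 6 libraries alone, mixl1 (adjusted p = 0.0216) and foxa3 (adjusted p = 0.0251) were called lower. Against controls the libraries with CHX were higher by 6.53 for tbxta (adjusted p = 1.29e-06), by 5.17 for mixl1 (adjusted p = 6.94e-07) and by 6.13 for foxa3 (adjusted p = 1.03e-06).

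Some members of this set had libraries that did not overlap although the call was missed. The ligand gene FGF8 (ENSDARG00000003399; the reference gives the symbol to more than 1 gene) stood at 33.8, 49.4 and 26.3 CPM without CHX and at 24.5, 8.12 and 12.3 CPM with it. All libraries with CHX were lower, with a change of −1.28 ± 0.62 (adjusted p = 0.0753), and without replicate 1 with CHX the change was −1.83 (adjusted p = 0.031). OSR1, a zinc finger gene of the mesendoderm, stood at 24.2, 26.6 and 11.9 CPM without CHX and at 11.7, 7.38 and 5.10 CPM with it. Its change was −1.37 ± 0.77 (adjusted p = 0.129), with no overlap of the groups, and the fit of the 6 libraries alone called it lower (adjusted p = 0.00954).

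**Figure D2:**
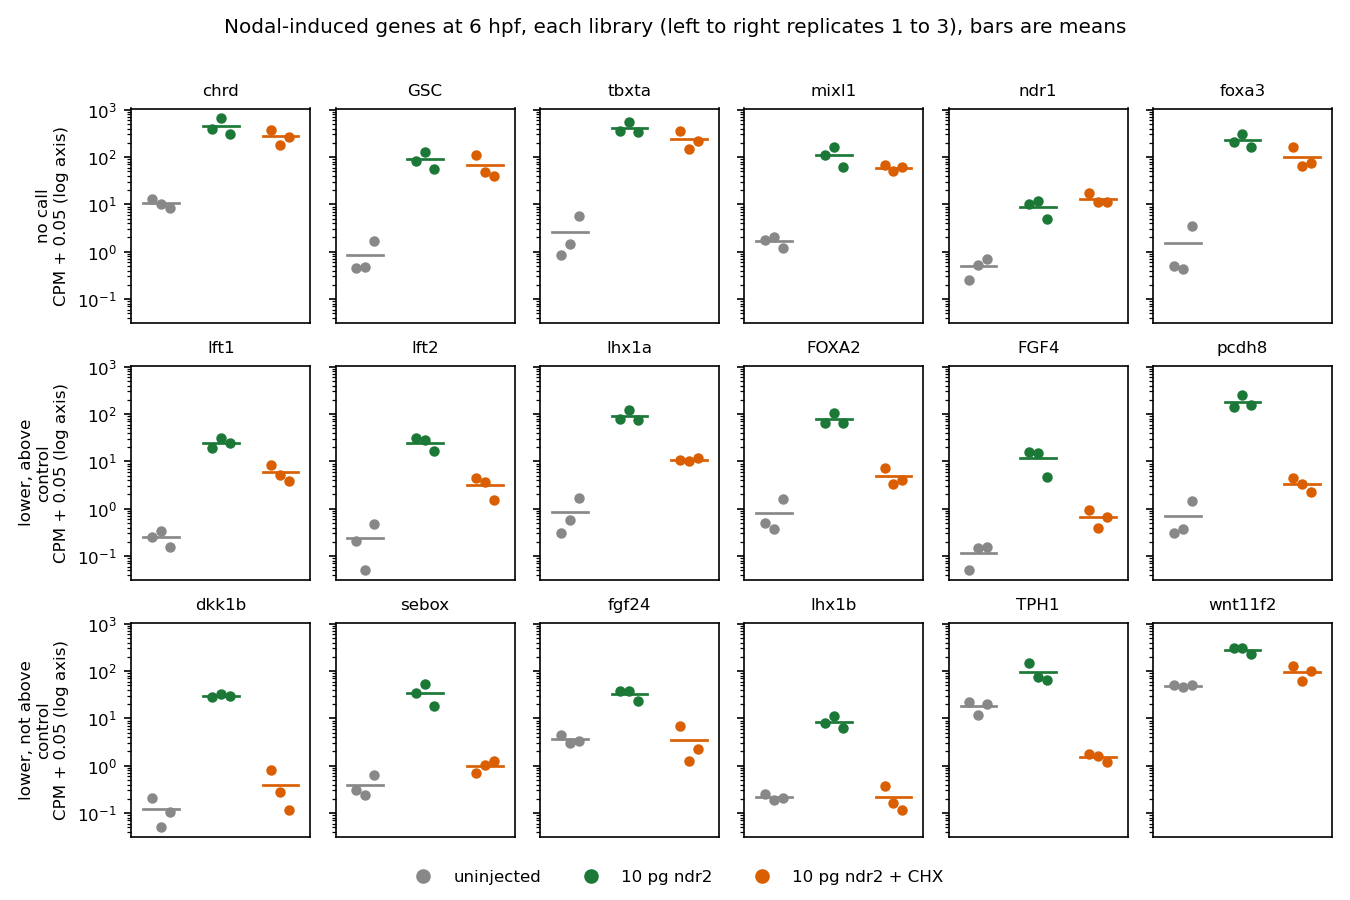
CPM of 18 Nodal-induced genes at 6 hpf on a log axis, 1 point per library, for controls, 10 pg, and 10 pg with CHX, with an offset of 0.05 CPM added so that 0 can be drawn. In the upper row the groups with and without CHX had no called difference (GSC 84.4, 129.6 and 57.0 against 110.0, 49.1 and 40.2 CPM), in the middle row CHX libraries were lower but above controls (lhx1a 10.9, 9.94 and 11.8 CPM), and in the lower row they were lower and not called above controls (lhx1b 0.318, 0.111 and 0.0662 CPM).

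In the second pattern, 13 genes were called lower with CHX and were still above controls, among them both Lefty genes. lhx1a, a LIM homeobox gene of the organizer, stood at 79.6, 124 and 73.1 CPM without CHX and at 10.9, 9.94 and 11.8 CPM with it, against 0.255 to 1.60 CPM in controls. The libraries with CHX were tightly grouped between the other groups, and the change was −3.08 ± 0.59 (adjusted p = 4.49e-05). FOXA2, a forkhead gene of axial mesoderm and endoderm, went from 65.1, 107 and 64.7 CPM to 7.31, 3.34 and 3.90 CPM, a change of −4.02 ± 0.76 (adjusted p = 4.18e-05). pcdh8 (ENSDARG00000006467), a protocadherin of paraxial mesoderm, fell furthest of this set, from 143, 251 and 153 CPM to 4.31, 3.30 and 2.18 CPM. That was a 55.8-fold fall, with a change of −5.80 ± 0.82 (adjusted p = 5.82e-07), and the libraries with CHX were above the 0.255 to 1.38 CPM of controls by 2.33 (adjusted p = 0.0176).

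Ligands of the Fgf family and the endoderm gene GATA5 also belonged here. FGF4 went from 15.9, 14.8 and 4.70 CPM to 0.883, 0.334 and 0.629 CPM, a change of −4.25 ± 0.92 (adjusted p = 0.000236). FGF3 went from 16.4, 28.4 and 13.2 CPM to 6.14, 3.64 and 4.80 CPM, a change of −1.99 ± 0.69 (adjusted p = 0.0141). The fall of FGF3 lost its call with library totals (−1.42, adjusted p = 0.0754), without replicate 2 of 10 pg (−1.61, adjusted p = 0.0683) and without replicate 2 with CHX (−1.82, adjusted p = 0.0574). GATA5, a zinc finger regulator of endoderm, went from 20.1, 28.3 and 17.0 CPM to 7.03, 3.67 and 5.46 CPM, a change of −2.01 ± 0.79 (adjusted p = 0.0302). Its groups did not overlap, but the call was lost with library totals (adjusted p = 0.109), without replicate 2 of 10 pg (adjusted p = 0.0818), without replicate 2 with CHX (adjusted p = 0.102) and without replicate 3 with CHX (adjusted p = 0.0696).

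In the third pattern, 14 genes were called lower with CHX and were not called above controls. Here too a missed call does not show equal levels. dkk1b, which encodes a secreted Wnt inhibitor of the prechordal plate, went from 28.1, 33.4 and 29.0 CPM to 0.742, 0.223 and 0.0662 CPM, against 0 to 0.153 CPM in controls. The fall was 86.8-fold, a change of −6.44 ± 0.89 (adjusted p = 2.95e-07), or −7.68 without replicate 1 with CHX. sebox (mezzo), a homeobox gene of the mesendoderm, went from 34.1, 53.1 and 17.8 CPM to 0.636, 0.965 and 1.19 CPM, a change of −5.22 ± 0.84 (adjusted p = 3.74e-06). For both genes the groups with and without CHX were far apart, and the libraries with CHX lay near the controls. lhx1b, the sister gene of lhx1a, went from 7.79, 11.4 and 6.33 CPM to 0.318, 0.111 and 0.0662 CPM and lay level with the 0.141 to 0.204 CPM of controls. Its change was −5.64 ± 0.83 (adjusted p = 7.41e-07), and its difference from controls was −0.03 (adjusted p = 0.984).

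Other genes of this set fell to differing extents. fgf24, an Fgf ligand of mesoderm, went from 38.2, 37.1 and 23.7 CPM to 6.89, 1.19 and 2.18 CPM, around the 3.01 to 4.33 CPM of controls, a change of −3.27 ± 0.58 (adjusted p = 1.47e-05), or −4.28 without replicate 1 with CHX. wnt11f2 (silberblick), a Wnt ligand that guides cell movements of gastrulation, went from 303, 312 and 232 CPM to 127, 61.6 and 99.5 CPM, with controls at 44.9 to 51.1 CPM. Its change was −1.56 ± 0.57 (adjusted p = 0.0197), which lost its call without replicate 2 with CHX (adjusted p = 0.0887) and with library totals (adjusted p = 0.138). TPH1 (ENSDARG00000036082), a tryptophan hydroxylase of serotonin synthesis, went from 151, 74.0 and 66.0 CPM to 1.70, 1.56 and 1.13 CPM. Controls were at 11.6 to 22.0 CPM, so explants with CHX lay below them (−3.62, adjusted p = 0.000206). ACVR1B (ENSDARG00000018968), a type I Activin receptor that transduces Nodal, went from 402, 480.1 and 339 CPM to 233, 183 and 212 CPM, with controls at 155 to 182 CPM, a change of −0.96 ± 0.16 (adjusted p = 6.51e-06). For wnt11f2 and ACVR1B every library with CHX lay above every control library, although neither gene was called above controls.

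Another list, the 107 genes called higher with 6 pg than in controls at 6 hpf (0.508% of genes tested), also used libraries outside the comparison, and shared 43 genes with the first. Of these 107, 63 were called lower with CHX (58.9%), 5 higher (4.67%) and 39 not, with a median change of −1.45. Of the genes that rose with age in uninjected controls, 67.5% were called lower, with a median of −1.47. Of all genes 27.2% were lower and 29.0% higher. All libraries with CHX lay below all without it in 74 of the 107 and above in 7, beside 31.0% and 34.0% of all genes. The list was chosen for being above the same 6 hpf controls, so no comparison of it with controls is given. The 5 that were higher included SULF1, a heparan sulfate 6-O-endosulfatase, cth1, a zinc finger protein stored in the egg, and ITGB5, an integrin beta subunit. cth1 stood at 109, 119 and 67.6 CPM without CHX and at 415, 501 and 354 CPM with it, a 4.29-fold rise (adjusted p = 0.000342). SULF1 stood at 24.1, 32.6 and 22.5 CPM without CHX and at 104, 36.1 and 43.5 CPM with it, a change of 1.21 ± 0.52 (adjusted p = 0.0448). That call was marginal. Without replicate 1 with CHX the change was 0.59 (adjusted p = 0.365). Without replicate 1, 2 or 3 of 10 pg the call was lost as well (adjusted p = 0.106, 0.0534 and 0.121). It was also lost with RLE scaling (adjusted p = 0.062), no count filter (adjusted p = 0.06), the libraries of 6 hpf alone (adjusted p = 0.0567) and a replicate block (adjusted p = 0.0576).

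Among the 21 tested Nodal receptors and transducers, 6 were called higher and 6 lower, with a median of −0.23, shares close to those of all genes (29.0% and 27.2%). EOMES (ENSDARG00000006640), a T-box gene whose maternal product acts with Nodal in endoderm induction, rose from 4.84, 5.19 and 4.11 CPM to 58.9, 101 and 78.0 CPM, a change of 4.07 ± 0.41 (adjusted p = 7.42e-10). SMAD2, the signal transducer itself, rose from 36.5, 45.9 and 38.9 CPM to 153, 219 and 159 CPM, a change of 2.13 ± 0.24 (adjusted p = 3.7e-09). Controls held 4.23 to 8.61 CPM of EOMES and 34.7 to 46.3 CPM of SMAD2, so in both genes the libraries with CHX stood clear of the rest. The co-receptor gene tdgf1 fell from 517, 483 and 346 CPM to 248, 139 and 172 CPM, a change of −1.27 ± 0.27 (adjusted p = 0.000192), close to the 180.2 to 319 CPM of controls. BAMBI (ENSDARG00000055381), a pseudoreceptor that dampens TGF-beta and Bmp signalling, fell from 252, 273 and 375 CPM to 33.8, 18.1 and 22.9 CPM, a change of −3.59 ± 0.52 (adjusted p = 8.43e-07). foxh1, the DNA-binding partner of Smad2, stood at 527, 520.4 and 558 CPM without CHX and at 527, 328 and 315 CPM with it, a change of −0.46 ± 0.21 (adjusted p = 0.0622).

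Of the 14 endoderm regulators, 2 were called higher with CHX (14.3%) and 6 lower (42.9%), with a median of −1.27. The shares of all genes were 29.0% and 27.2%. SOX17, the endoderm marker downstream of sox32, was one of the higher ones. It stood at 0.368, 0.938 and 2.60 CPM without CHX and at 16.2, 13.3 and 15.9 CPM with it, whereas controls held 0 to 0.0532 CPM. The libraries with CHX were tightly grouped above all others, with a change of 3.54 ± 1.16 (adjusted p = 0.0108). Without replicate 1 of 10 pg the change was 3.09 (adjusted p = 0.0513), and without replicate 3 of 10 pg it was 4.53. sox32 (casanova), which is required for sox17 expression in zebrafish, stood at 4.16, 9.60 and 11.8 CPM without CHX and at 35.5, 8.61 and 8.47 CPM with it. Its groups overlapped, with replicate 1 with CHX alone above the rest, and the change of 1.04 ± 0.80 was not called (adjusted p = 0.274). Without that library it was 0.00 (adjusted p = 0.998). hhex, a homeobox gene of anterior endoderm, had 0 counts in the 3 libraries of 10 pg and 0.777, 0.445 and 0.827 CPM with CHX, at least 12.8-fold higher against a floor of 3 counts over the group. DESeq2 did not call hhex (adjusted p = 0.0658). The lower members included CXCR4 (ENSDARG00000041959), a chemokine receptor, which fell from 338, 278 and 291 CPM to 108, 35.8 and 56.6 CPM, a change of −2.18 ± 0.36 (adjusted p = 5.32e-06). The reference gives this symbol to 2 genes, and whether this one is the paralog of endoderm cells is uncertain.

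The mesodermal lists held more falls than rises, whereas 27.2% of all genes were called lower and 29.0% higher. Of 13 prechordal plate genes 6 were lower and 1 higher (median −1.69), of 11 notochord and axial genes 5 were lower and 0 higher (median −1.31), and of 16 ventrolateral and paraxial genes 10 were lower and 0 higher (median −1.88). frzb, a secreted Wnt antagonist, fell from 12.5, 18.6 and 18.9 CPM to 0.459, 2.08 and 0.794 CPM, a change of −3.90 ± 0.91 (adjusted p = 0.000479), and the difference from controls of 0.43 was not called (adjusted p = 0.7). Without replicate 2 with CHX the fall of frzb was −4.72. TBXT, the other Brachyury gene in the table, stood at 3.47, 19.6 and 14.7 CPM without CHX and at 0.0353, 0 and 0.0993 CPM with it, a change of −7.92 ± 1.32 (adjusted p = 7.1e-06), or −9.04 without replicate 3 with CHX. Its sister tbxta, described above, kept 146 to 358 CPM with CHX. noto (floating head), a homeobox gene of the notochord, went from 137, 146 and 79.5 CPM to 75.6, 23.5 and 31.8 CPM. The change was −1.47 ± 0.62 (adjusted p = 0.0426) and lost its call in 8 alternatives, among them without replicate 1 (adjusted p = 0.0898) or 2 (adjusted p = 0.105) of 10 pg and without replicate 2 (adjusted p = 0.163) or 3 (adjusted p = 0.129) with CHX, and with a replicate block within each age (adjusted p = 0.0684). Without replicate 1 with CHX the change of noto was −2.13 (adjusted p = 0.0139).

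Genes of the paraxial and ventrolateral mesoderm included some that were close to absent with CHX. mespab, a bHLH gene of somite formation, stood at 6.74, 18.9 and 11.6 CPM without CHX and had 684 counts there against 2 counts with CHX. The ratio was 526-fold lower, with a 95% counting interval of 145 to 4349.9. eve1, a homeobox gene of ventral mesoderm, stood at 2.58, 5.02 and 12.8 CPM without CHX and had 0 counts with it, at least 193-fold lower against a floor of 3 counts over the group. aplnra, an Apelin receptor of migrating mesendoderm, fell from 189, 217 and 155 CPM to 13.8, 8.79 and 11.2 CPM, a change of −4.05 ± 0.48 (adjusted p = 1.91e-08), from a level that controls shared (156 to 213 CPM). tbx16 (spadetail), a T-box gene of paraxial mesoderm, fell from 779, 921 and 474 CPM to 365, 115 and 211 CPM, a change of −1.65 ± 0.56 (adjusted p = 0.0136).

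Most genes of the Fgf list fell. Of 16 tested, 12 were lower (75%) and 1 higher (6.25%), with a median of −1.26, beside 27.2% and 29.0% of all genes. The receptor fgfr4 fell from 608, 646 and 694 CPM to 154, 69.6 and 73.9 CPM, a change of −2.71 ± 0.53 (adjusted p = 6.01e-05). DUSP6, a phosphatase that limits Erk downstream of Fgf, fell from 292, 283 and 282 CPM to 123, 56.4 and 72.0 CPM, a change of −1.77 ± 0.38 (adjusted p = 0.000197). ETV4, an Ets factor induced by Fgf, fell by 2.23 ± 0.44 on the log2 scale (adjusted p = 7.27e-05), while its relative etv5a rose from 86.4, 65.2 and 71.5 CPM to 154, 145 and 131 CPM (0.95 ± 0.23, adjusted p = 0.000807). The ligand fgf17 stood at 14.7, 21.9 and 12.5 CPM without CHX and at 49.8, 23.8 and 35.6 CPM with it; the groups did not overlap, but the change of 1.15 ± 0.54 was not called (adjusted p = 0.0698).

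The Wnt and Bmp lists held more falls than rises. Of 11 Wnt genes 4 were lower (36.4%) and 1 higher (9.09%), with a median of −1.40. Of 23 Bmp genes 11 were lower (47.8%) and 2 higher (8.7%), with a median of −1.77. The shares of all genes were 27.2% lower and 29.0% higher. WNT3A fell from 2.05, 5.63 and 3.95 CPM to 0.0353, 0.0371 and 0.298 CPM (−4.88 ± 0.99, adjusted p = 9.6e-05), or −6.53 without replicate 3 with CHX. AXIN2, a feedback target of canonical Wnt signalling, rose from 23.6, 29.0 and 26.3 CPM to 81.3, 58.8 and 51.8 CPM (1.28 ± 0.34, adjusted p = 0.00198), with controls at 17.7 to 22.9 CPM. Among Bmp target genes, ID1 fell from 70.6, 82.0 and 80.7 CPM to 19.2, 7.12 and 10.4 CPM (−2.67 ± 0.49, adjusted p = 2.95e-05) and ID3 from 47.0, 79.5 and 95.7 CPM to 7.35, 3.49 and 7.02 CPM (−3.64 ± 0.54, adjusted p = 1.19e-06). FST (ENSDARG00000052846), follistatin, an antagonist of Activin and Bmp, rose from 1.68, 0.938 and 0.649 CPM to 40.0, 23.2 and 39.2 CPM (4.96 ± 0.91, adjusted p = 2.3e-05).

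The ectodermal lists divided into losses of epidermal genes and a mixture among neural genes. Of 11 epidermal ectoderm genes 9 were lower and 0 higher, with a median of −1.79. DLX3, a homeobox gene of non-neural ectoderm, fell from 3.10, 8.28 and 16.0 CPM to 0, 0.111 and 0.0993 CPM (−6.91 ± 1.18, adjusted p = 9.5e-06, or −6.23 without replicate 3 of 10 pg), and foxi1 fell from 96.1, 51.6 and 135 CPM to 25.3, 11.5 and 13.0 CPM (−2.51 ± 0.53, adjusted p = 0.000167). Of 16 neural genes, 7 were lower (43.8%) and 5 higher (31.2%), with a median of −0.75, beside 27.2% and 29.0% of all genes. SOX2 fell from 152, 217 and 256 CPM to 19.6, 11.6 and 11.0 CPM (−3.89 ± 1.03, adjusted p = 0.00199).

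Genes of brain regions moved in both directions. Both genes with the symbol SIX3, homeobox factors of the anterior neural plate, fell, ENSDARG00000054879 from 3.05, 2.59 and 6.06 CPM to 0.212, 0.0371 and 0.265 CPM (−4.45 ± 0.82, adjusted p = 2.74e-05) and ENSDARG00000058008 from 12.5, 8.39 and 15.4 CPM to 1.59, 0.965 and 0.364 CPM (−3.63 ± 0.75, adjusted p = 0.000109). rx3, a homeobox gene of the eye field, stood at 0.631, 0.276 and 0.595 CPM without CHX and at 182, 47.2 and 49.5 CPM with it, against 0.532 to 1.68 CPM in controls. Its change was 7.51 ± 1.03 (adjusted p = 3.4e-07), and 6.57 without replicate 1 with CHX, which was the highest library. her5, a Hairy-related repressor of the midbrain-hindbrain region, stood at 3.58, 2.81 and 1.89 CPM without CHX and at 206, 62.5 and 69.3 CPM with it (5.35 ± 0.72, adjusted p = 2.26e-07), and 4.57 without replicate 1 with CHX. Of the other higher neural genes, ZIC1 and neurog1 lost their calls without that replicate. ZIC1 changed by 1.51 with it and 0.49 without it (adjusted p = 0.38). neurog1 changed by 1.91 with it and 0.87 without it (adjusted p = 0.392). The call of neurog1 was also lost without replicates 1 (adjusted p = 0.0599) and 2 (adjusted p = 0.161) of 10 pg. Fitted from the 6 libraries alone, neither ZIC1 (adjusted p = 0.057) nor neurog1 (adjusted p = 0.0618) was called.

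The largest rises among genes of at least 5 CPM belonged to no single list. EN2 (ENSDARG00000026599), an Engrailed gene of the midbrain-hindbrain boundary in vertebrates, had 1 count in the 3 libraries without CHX and 558 counts with it, 363-fold higher with a 95% counting interval of 64.9 to 14363. Its libraries with CHX held 12.3, 2.97 and 4.27 CPM. Its fitted log2 change, which depends on the prior count, was 8.10, 7.25 without replicate 1 with CHX and 10.13 without replicate 3 of 10 pg, which held the 1 count. mab21l2, an eye gene, was at 4.63, 6.46 and 8.34 CPM with CHX and had 2 counts without it, 181-fold higher (49.9 to 1499.7). gata2b, a zinc finger gene of blood formation, rose from 0.105, 0.110 and 0.108 CPM to 17.0, 6.60 and 11.9 CPM (6.70 ± 1.08, adjusted p = 3.15e-06), and VEGFC, a growth factor of lymphatic vessels, from 0.105, 0 and 0.433 CPM to 14.4, 8.83 and 11.3 CPM (5.96 ± 1.16, adjusted p = 7.34e-05, or 7.60 without replicate 3 of 10 pg). ISL1, a LIM homeobox gene, stood at 32.0, 2.82 and 2.71 CPM with CHX and at 0.210 to 0.386 CPM without it. Its change of 5.24 ± 1.27 (adjusted p = 0.000809) was 3.07 (adjusted p = 0.026) without replicate 1 with CHX.

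Genes of the enveloping layer (EVL), the flat epithelium that covers the blastula, fell steeply, and 4 of the 12 largest falls (krt92, krt17, cyt1 and cyt1l) were in that list. Of 28 EVL genes tested, 23 were lower (82.1%) and 2 higher (7.14%), beside 27.2% and 29.0% of all genes. Their median of −6.33 was the lowest median of the 23 gene lists. krt4, a keratin, stood at 4885, 7101 and 6937 CPM without CHX and at 15.4, 2.93 and 3.54 CPM with it (−9.76 ± 0.89, adjusted p = 2.38e-10), or −10.92 without replicate 1 with CHX. krt5 fell from 2694, 4159 and 4263 CPM to 1.06, 1.00 and 0.960 CPM, and krt8 from 4889, 6581 and 6430.3 CPM to 10.2, 9.61 and 4.04 CPM. Keratins among the most abundant transcripts without CHX were thus close to absent in all 3 libraries with CHX. krt92 had 81375 counts without CHX and 1 count with it. The type I keratin genes cyt1 and krt17 also fell, cyt1 with 512, 651 and 1017 CPM against 0.0353, 0.148 and 0.0331 CPM (−13.22 ± 1.26, adjusted p = 6.1e-10, or −14.15 without replicate 2 with CHX) and krt17 with 11518 counts against 2. Outside the list, cd44a, a hyaluronan receptor, and agr1, an anterior gradient secretory protein, had 0 counts with CHX and were at least 2367-fold and 1196-fold lower against a floor of 3 counts over the group.

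The regulators klf2a and grhl3 did not follow the EVL keratins. klf2a, a Krüppel-like factor, rose from 54.3, 47.0 and 37.7 CPM to 218, 68.2 and 119 CPM (1.54 ± 0.36, adjusted p = 0.000578). grhl3, a Grainyhead factor of surface epithelia, stood at 590.3, 692 and 477 CPM without CHX and at 812, 332 and 486 CPM with it, with overlapping groups (−0.11 ± 0.36, adjusted p = 0.807).

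Marker genes described which other cells the explants could hold. The summed level of 10 EVL markers was 14807 to 19529 CPM in controls, 15709 to 21962 CPM with 10 pg and 386 to 964 CPM with CHX. Of 6 germ cell markers 4 were higher with CHX and 0 lower, where 29.0% and 27.2% of all genes were. Their sum was 178 to 204 CPM without CHX and 279 to 318 CPM with it. The 5 tested markers of the yolk syncytial layer summed to 2.79 to 3.03 CPM without CHX and 2.65 to 4.73 CPM with it. The longer list of that layer, which holds the apolipoprotein genes apoeb and apoc1, summed to 1729 to 3348 CPM without CHX and 161 to 509 CPM with it. Markers of blastula cells such as pou5f3, nanog and cdh1 were abundant in both groups, at 6106 to 6775 CPM without CHX and 3561 to 4171 CPM with it. The part of cell composition in the changes above was not tested.

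Transcripts stored in the egg were higher with CHX. Of 20 maternally loaded transcripts tested, 16 were higher (80%) and 1 lower (5%), with a median of 2.04. Of all genes 29.0% were higher and 27.2% lower, with a median of 0.12. BTG4, an adaptor for deadenylation of maternal RNA in the mouse egg, stood at 5.79, 2.54 and 3.24 CPM without CHX and at 122, 106 and 78.2 CPM with it (4.72 ± 0.57, adjusted p = 3.22e-08). MOS, the kinase that arrests the egg in meiosis, stood at 1.00, 0.883 and 0.919 CPM without CHX and at 20.4, 18.1 and 16.6 CPM with it (4.29 ± 0.36, adjusted p = 2.2e-11). The oocyte growth factors GDF9 (4.12 ± 0.48, or 4.71 without replicate 1 of 10 pg) and bmp15 (4.15 ± 0.54) rose by similar amounts, and nanog rose from 521, 358 and 224 CPM to 1537, 1305 and 1511 CPM (1.98 ± 0.26, adjusted p = 9.37e-08). In each of these the libraries with CHX lay above every library without it. The exception was pou5f3, whose product activates the zygotic genome with Nanog and SoxB1 factors, at 2665, 3292 and 3096 CPM without CHX and 1177, 984 and 1141 CPM with it (−1.46 ± 0.16, adjusted p = 2.92e-09).

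Germ plasm transcripts, which are also maternal, rose in 5 of 10 and fell in 0, with a median of 1.44. Of all genes 29.0% rose and 27.2% fell. buc (bucky ball), the organizer of germ plasm, rose from 3.47, 7.56 and 3.46 CPM to 83.7, 141 and 90.9 CPM (4.44 ± 0.60, adjusted p = 2.27e-07), and tdrd7a, a Tudor protein of germ granules, from 6.68, 8.83 and 3.08 CPM to 35.9, 61.0 and 37.1 CPM (2.85 ± 0.49, adjusted p = 9.86e-06). DND1, an RNA-binding protein that protects germ cell transcripts, rose by 2.36 ± 0.39 (adjusted p = 5.7e-06). DDX4 (vasa) gave 0.14 and was not called (adjusted p = 0.579).

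The same contrast appeared across the transcriptome when genes were sorted by their course in uninjected controls from 4 to 6 hpf, in libraries that the comparison did not use. Over that time 6763 genes fell (32.1% of genes tested) and 6572 rose (31.2%). Of the 6763 that fell with age, 4720 (69.8%) were higher with CHX and 93 (1.38%) lower, with a median change of 1.53. Of the 6572 that rose with age, 4437 (67.5%) were lower with CHX and 110 (1.67%) higher, with a median of −1.47. The 7740 genes with no call in the controls had a median of 0.12, with 1290 higher (16.7%) and 1196 lower (15.5%). Genes that fell with age made up 77.1% of all genes higher with CHX, and genes that rose with age 77.5% of all genes lower with CHX. Summed over the falling genes, the level was 105443 to 114899 CPM without CHX and 245403 to 254413 CPM with it, beside 112368 to 115727 CPM in controls. For the rising genes it was 835959.7 to 950062 CPM without CHX and 330823 to 392868 CPM with it. These sums are scaled by TMM, whose factors were 0.788 to 0.87 without CHX and 1.18 to 1.29 with it. The scaling raised levels without CHX and lowered those with it, so the sums are not shares of counts.

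**Figure D3:**
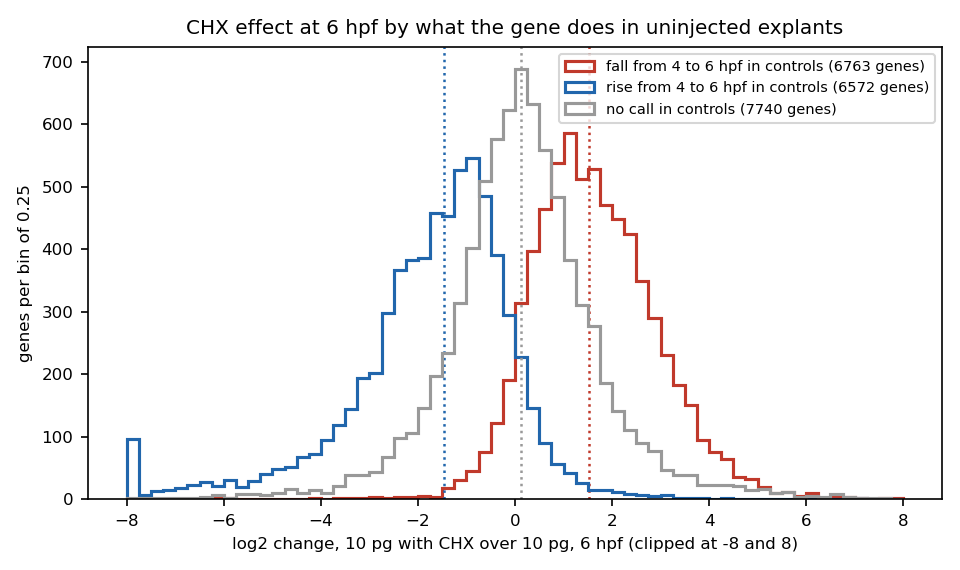
Distribution of the log2 change with CHX at 6 hpf for genes that fell, rose or had no call in uninjected controls between 4 and 6 hpf as the number of genes per bin, with the class medians marked. Genes that fell with age had a median of 1.53, genes that rose −1.47 and genes with no call 0.12.

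Early zygotic genes followed the rising class: of 19 tested, 12 were lower and 3 higher, with a median of −1.58. The higher ones included CCNA1, a cyclin that is also stored in the egg. HSPB1, a small heat shock protein, fell from 2336, 3030.0 and 3217 CPM to 147, 78.5 and 168 CPM (−4.45 ± 0.51, adjusted p = 1.31e-08). The ventralizing repressors vox (263, 268 and 368 CPM against 151, 68.8 and 68.8 CPM) and vent (50.7, 70.3 and 72.9 CPM against 35.2, 12.6 and 14.2 CPM) fell, with changes of −1.64 ± 0.39 (adjusted p = 0.000664) and −1.65 ± 0.54 (adjusted p = 0.00996). In the yolk syncytial layer list 5 of 11 tested genes were lower (45.5%) and 3 higher (27.3%), with a median of −1.79. The shares of all genes were 27.2% and 29.0%. The apolipoprotein gene apoc1 of that list fell from 72.5, 87.5 and 195 CPM to 1.24, 1.48 and 0.894 CPM (−6.62 ± 1.04, adjusted p = 2.89e-06).

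Cell movement and adhesion genes gave 11 lower and 2 higher of 22 tested, with a median of −0.71, where 27.2% and 29.0% of all genes were. The chemokine cxcl12b fell from 23.0, 9.77 and 11.0 CPM to 0.742, 0.111 and 0.265 CPM (−5.27 ± 0.62, adjusted p = 1.31e-08), or −6.22 without replicate 1 with CHX. PRICKLE1 (ENSDARG00000040649), a planar cell polarity gene of convergent extension, fell from 37.0, 84.1 and 81.9 CPM to 7.24, 7.35 and 6.78 CPM (−3.25 ± 0.45, adjusted p = 3.15e-07). Groups did not overlap for either gene.

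Most genes of a list of translation factors, which also holds ribosome biogenesis genes and the RNA polymerase I subunit POLR1A, were lower at the RNA level. Of 23 tested, 18 were lower (78.3%) and 3 higher (13%), with a median of −1.24, beside 27.2% and 29.0% of all genes. eef1a1l1, an elongation factor that carries aminoacyl tRNA to the ribosome, fell from 16612, 20997 and 20742 CPM to 2814, 2151 and 2419.7 CPM (−2.98 ± 0.21, adjusted p = 7.31e-13). The initiation factors EIF4E, which binds the cap, and EIF4G1, its scaffold, fell, with changes of −2.78 ± 0.32 (adjusted p = 9.59e-09) and −2.52 ± 0.28 (adjusted p = 5.79e-09). The 80 ribosomal protein genes took 1.94% to 2.34% of counts without CHX and 0.738% to 0.835% with it. pabpn1l, a poly(A)-binding protein of the egg, rose from 21.8, 11.8 and 10.0 CPM to 145, 127 and 139 CPM (3.23 ± 0.27, adjusted p = 2.41e-11).

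Splicing factors fell almost without exception: of 21 tested, 20 were lower and 1 higher, with a median of −1.55. The list was drawn from genes that carry poison exons, whose inclusion makes a transcript a target of nonsense-mediated decay, but gene counts do not separate such isoforms. hnrnpa0a, an RNA-binding protein, fell from 616, 904 and 860.2 CPM to 82.0, 66.1 and 87.7 CPM (−3.33 ± 0.39, adjusted p = 1.5e-08), and srsf5a, an SR protein, from 1685, 1731 and 1344 CPM to 459, 178 and 263 CPM (−2.40 ± 0.33, adjusted p = 3.39e-07). The exception, SRSF7, was low, at 0.662 to 0.865 CPM without CHX and 1.19 to 2.37 CPM with it, and its call was lost in 8 alternatives, among them a replicate block within each age (adjusted p = 0.0717). Of 9 genes of nonsense-mediated decay, 4 were lower (44.4%) and 2 higher (22.2%), with a median of −0.16, beside 27.2% and 29.0% of all genes. Among them SMG1, the kinase of UPF1, fell from 538, 587 and 588 CPM to 199, 122 and 164 CPM (−1.82 ± 0.26, adjusted p = 4.41e-07). The falls of SMG9, UPF1 and SMG5 lost their calls with library totals (adjusted p = 0.303, 0.308 and 0.803). The rises of SMG6 and SMG8 lost theirs in several alternatives, among them without replicate 1 of 10 pg (adjusted p = 0.0627 and 0.0538).

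Cell cycle genes were lower in 18 of 34 (52.9%) and higher in 6 (17.6%), with a median of −0.72, beside 27.2% and 29.0% of all genes. Replication genes were among the largest falls: MCM3, a subunit of the replicative helicase, went from 533, 521 and 559.8 CPM to 70.8, 27.5 and 24.4 CPM (−3.72 ± 0.65, adjusted p = 1.49e-05, or −4.37 without replicate 1 with CHX), and E2F1, a transcription factor of S phase genes, from 6.89, 5.46 and 6.38 CPM to 1.13, 0.482 and 0.430 CPM (−3.19 ± 0.42, adjusted p = 9.25e-08). CHEK1, the kinase that slows the cell cycle at the mid-blastula transition of frog and fish embryos, rose from 19.3, 18.3 and 20.7 CPM to 71.5, 71.4 and 69.1 CPM (1.86 ± 0.20, adjusted p = 2.42e-09). cdc25b, a phosphatase that activates Cdk1, rose from 230.4, 233 and 211 CPM to 565, 446 and 508 CPM (1.17 ± 0.15, adjusted p = 4.58e-08). CCNE1 and CCNB2, cyclins of the S and M phases, rose by 0.73 ± 0.15 (adjusted p = 7.98e-05) and 0.94 ± 0.26 (adjusted p = 0.00237).

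Of 30 genes of p53 and stress pathways, 13 were lower (43.3%) and 3 higher (10%), with a median of −0.96. The shares of all genes were 27.2% and 29.0%. The p53 target PHLDA3 fell from 97.6, 32.8 and 41.6 CPM to 4.80, 4.30 and 7.02 CPM (−3.41 ± 0.62, adjusted p = 2.19e-05, or −2.79 without replicate 1 of 10 pg), and atf4a, a factor of the integrated stress response, from 467, 519.7 and 675 CPM to 51.8, 35.2 and 57.0 CPM (−3.53 ± 0.49, adjusted p = 4.34e-07). HSPA5, the chaperone of the endoplasmic reticulum, rose from 135, 211 and 213 CPM to 441, 625 and 436 CPM (1.42 ± 0.30, adjusted p = 0.000146), and DDIT3 (Chop) from 11.0, 15.2 and 14.9 CPM to 35.8, 35.1 and 41.5 CPM (1.45 ± 0.54, adjusted p = 0.0216). The DDIT3 call was lost without replicate 1 of 10 pg (adjusted p = 0.0748) and without replicate 3 with CHX (adjusted p = 0.0506).

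Immediate early genes, many of which are known to accumulate when CHX blocks translation in cultured cells, were split evenly here. Of 29 tested, 6 were higher (20.7%), 6 lower (20.7%) and 17 not called, with a median of 0.13. Over all genes 29.0% were higher and 27.2% lower, with a median of 0.12. NR4A1, a nuclear receptor, rose from 8.31, 1.55 and 3.51 CPM to 65.8, 26.5 and 65.4 CPM (3.56 ± 0.64, adjusted p = 2.02e-05, or 4.37 without replicate 1 of 10 pg), and FOSB from 0.210, 0 and 0.216 CPM to 0.494, 2.08 and 2.48 CPM (3.51 ± 0.99, adjusted p = 0.00315). nfkbiaa, the inhibitor of NF-kappaB, fell from 27.8, 33.9 and 15.9 CPM to 1.80, 2.82 and 4.07 CPM (−3.15 ± 0.58, adjusted p = 2.75e-05), and IER5 from 202, 247 and 215 CPM to 65.2, 31.1 and 41.5 CPM (−2.27 ± 0.34, adjusted p = 1.4e-06).

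**Figure D4:**
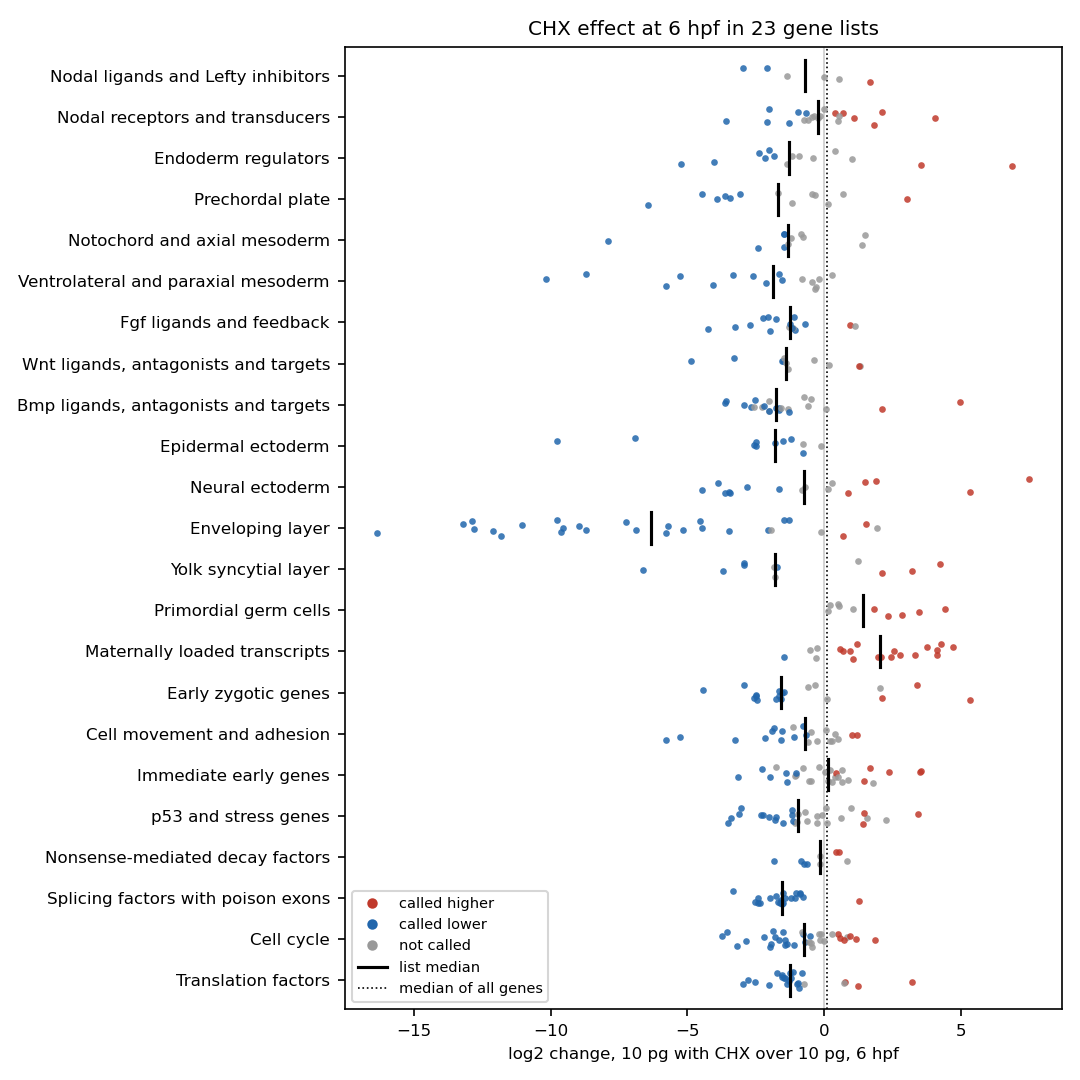
Log2 change with CHX at 6 hpf for the tested members of each gene list, 1 point per gene, with the list's median marked; the reference line is the median of all genes at 0.12. Enveloping layer genes had the lowest median (−6.33) and maternally loaded transcripts the highest (2.04).

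The effect of CHX on 10 pg explants could also be set against the same effect at 5 hpf, measured in other libraries. At 5 hpf 5265 genes were higher (25.0%) and 5108 lower (24.2%), and 8121 genes were called in the same direction at both ages while 40 were called in opposite directions. A test of the difference between the ages called 514 genes (2.44%), 257 in each direction (1.22% each), and 3946 genes had an unadjusted p below 0.05. With replicate number as a block within each age this count was 284. Single libraries moved the count further. It was 65 without replicate 3 of 10 pg at 6 hpf and 1636 without replicate 2 with CHX at 5 hpf. Beyond the class counts of the main fit, only the genes named here with their values are described. Of the 257 genes with a more positive effect at 6 hpf, 222 fell with age in controls, where 32.1% of all genes fell. Of the 257 with a more negative effect, 82 rose with age in controls and 73 fell. Those shares are close to the 31.2% and 32.1% of all genes. The effect at 6 hpf is part of the difference that chose these genes, so their calls at that age are not counted.

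Genes on the positive side included rx3, whose change was 2.75 ± 0.80 at 5 hpf and 7.51 ± 1.03 at 6 hpf, a difference of 4.76 ± 1.19 (adjusted p = 0.0294). Its mean level fell from 4.67 CPM at 5 hpf to 0.501 CPM at 6 hpf without CHX, while with CHX it was 31.6 and 92.9 CPM. CCNA1, a cyclin stored in the egg, stood at 659 CPM at 5 hpf and 173 CPM at 6 hpf without CHX and at 1729.7 and 1817 CPM with it, a difference of 2.00 ± 0.41 (adjusted p = 0.00971). On the negative side, scinlb, an actin-severing protein of the gelsolin family, stood at 8.06 CPM at 5 hpf and 75.5 CPM at 6 hpf without CHX and at 4.28 and 0.662 CPM with it. The difference was −5.89 ± 1.47 (adjusted p = 0.0291). TBR1, a T-box gene, stood at 0.223 and 8.50 CPM without CHX and at 0.540 and 0.515 CPM with it, a difference of −5.30 ± 1.01 (adjusted p = 0.00616). In both of the latter the level without CHX rose between the ages and the level with CHX did not follow. Whether these differences came from 1 library was tested for the count alone.

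**Figure D5:**
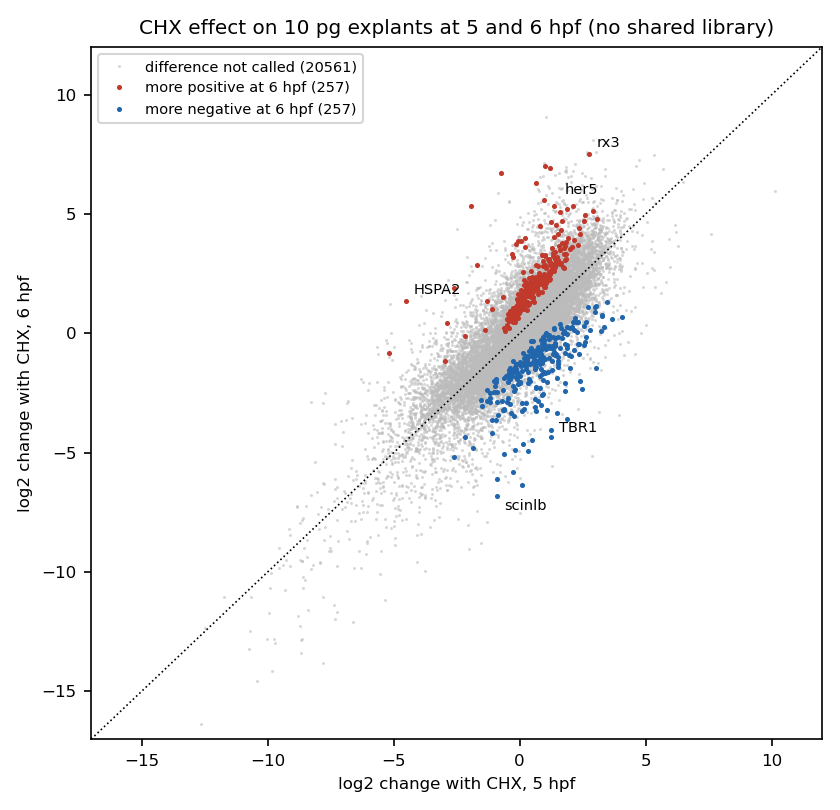
Log2 change with CHX at 5 hpf (horizontal axis) against that at 6 hpf (vertical axis) for all tested genes, with the 514 genes called for the difference between ages marked and 5 genes labelled. rx3 lies above the diagonal (2.75 and 7.51) and scinlb below it (−0.91 and −6.81).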

How the data were processed

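Bulk RNA-seq was measured in 45 samples in 15 groups, and the libraries described here were grouped by their titles. The deposited file holds raw counts per Ensembl gene. Per the submitters' processing notes STAR, featureCounts and DESeq2 were used with the GRCz11 build; their versions, the annotation release and whether strand was used in counting are not given in the sources used, so antisense, overlapping and near-identical genes may share counts. Totals ran from 12137856 to 28551066 counts per library. The table of 31465 genes was joined to symbols, written as the reference gives them, for 28965 genes; 1.25% of counts lay in genes without one. A symbol shared by several genes is printed with its Ensembl ID, and which paralog it names is uncertain.

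Counts were fitted with edgeR 4.0.16 (limma 3.58.1, R 4.3.3): TMM, filterByExpr (minimum count 10, total 15), robust quasi-likelihood, 1 coefficient per group over 43 libraries, 28 residual degrees of freedom, common dispersion 0.128. All groups entered so that they share 1 estimate of the spread. The columns of replicate 3 of 10 pg and of 10 pg with CHX at 4 hpf were identical in all genes (20553891 counts) and were left out. Adjusted p-values are Benjamini-Hochberg values over 21075 genes, at a threshold of 0.05, and ± is the SE of the fit. The fold bounds and 95% counting intervals of genes with 3 or fewer counts in a group cover counting error only. The procedure was tested on simulated data in which only a small set of planted genes differed between the groups. That test cannot speak to the scaling where 56.2% of genes are called, as here. DESeq2 1.42.0, other scalings, no count filter, other sample sets, replicate blocks and leaving out each library were alternatives.

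Replicates with the same number deviated together from their group means (correlations of 0.288, 0.136 and 0.182 over 11068 genes). The numbers may thus pair the samples, but the main fit, which gave the reported calls, held no block. A block was run as an alternative only. With replicate number as a block, 6145 genes were higher and 5721 lower.

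Members and gene lists (23 lists, 404 of 420 entries matched to a gene) were chosen with earlier results of these data known, so no list is independent evidence. Genes named were the 12 largest rises and falls with a symbol, at least 5 CPM and groups that do not overlap, up to 4 called genes of each list in each direction, the 10 Nodal-induced genes with the smallest adjusted p at 5 hpf, preset markers, and the 6 largest differences between ages in each direction. Other named genes are members of a list described by its pattern and were chosen after their values were seen. No sequence is printed, since the tables used here hold none. Some genes that the rule would name are not reported here.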

Additional observations from a re-analysis of the deposited data

Results flagged for a closer look

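The test of the difference between the CHX effect at 6 hpf and at 5 hpf was an interaction term in the same edgeR fit. It called 23 of the genes named in the text, where 2.44% of all genes were called. The 6 largest differences in each direction were named because of this test, so the count of 23 was partly fixed by that choice. Each value below is the effect at 6 hpf minus that at 5 hpf on the log2 scale. More positive effects at 6 hpf were found for the neural and ectodermal genes rx3 (4.76), TFAP2E (4.62), her5 (3.96) and EN2 (ENSDARG00000038868, 4.54). EN2 changed sign, from −2.62 (adjusted p = 0.00666) at 5 hpf to 1.92 (adjusted p = 0.0372) at 6 hpf. Its call at 6 hpf was lost with a replicate block within each age (adjusted p = 0.0505) and with all 45 libraries (adjusted p = 0.0533). It was also lost without replicates 1 (adjusted p = 0.132) and 3 (adjusted p = 0.0837) with CHX, and without replicates 2 (adjusted p = 0.113) and 3 (adjusted p = 0.121) of 10 pg. HSPA2, a heat shock protein, had the largest positive difference (5.87), with −4.50 (adjusted p = 0.00115) at 5 hpf and 1.37 (adjusted p = 0.31) at 6 hpf. The transcription factor genes klf2a (2.21) and blf (2.14) also changed sign. klf2a was −0.67 (adjusted p = 0.123) and then 1.54 (adjusted p = 0.000578). blf was −1.11 (adjusted p = 0.0234) and then 1.03 (adjusted p = 0.0298). The call of blf at 6 hpf was lost in the fit of the 6 libraries alone (adjusted p = 0.0651), without replicate 1 with CHX (0.64, adjusted p = 0.208) and without replicates 2 (adjusted p = 0.0736) and 3 (adjusted p = 0.156) of 10 pg.

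Cell cycle genes and egg transcripts with a more positive effect at 6 hpf were CCNA1 (2.00), pabpn1l (1.92), CCNE1 (0.95) and cdc25b (0.84). The gene zgc:100951 differed by 3.89, with mean levels of 72.0 CPM without and 65.7 CPM with CHX at 5 hpf, and of 19.1 and 259 CPM at 6 hpf.

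More negative effects at 6 hpf were found for scinlb (−5.89), olfcb1 (−5.49), TBR1 (−5.30), si:ch211-51a19.5 (−5.27), ERBB3 (−5.19), SIX3 (ENSDARG00000054879, −4.93), crybg1a (−4.81), PRICKLE1 (ENSDARG00000040649, −3.36), SMAD6 (ENSDARG00000053209, −3.03), ID3 (−2.53) and the Nodal-induced gene PLEKHG5 (ENSDARG00000101752, −2.05). ERBB3, a receptor tyrosine kinase, rose in mean level from 4.00 to 63.8 CPM between the ages without CHX, while with CHX it stood at 2.14 and 0.940 CPM. crybg1a was higher with CHX at 5 hpf (2.47 ± 0.66, adjusted p = 0.00243) and lower at 6 hpf (−2.35 ± 0.65, adjusted p = 0.00285).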

How the results depend on the processing

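Counts of genes higher with CHX at 6 hpf stayed within 1.5 times the reported 6120 in each alternative, and DESeq2 called 5948 higher and 6310 lower. Scaling by library totals lowered the count of lower genes to 3729. It also moved the median of the 107 genes induced by 6 pg from −1.45 to −0.88, that of genes rising with age from −1.47 to −0.90 and that of genes falling with age from 1.53 to 2.09, the last of which was 1.44 with RLE scaling. Without single libraries 5409 to 5747 genes were higher and 5033 to 5410 lower. The count of genes whose effect differed between ages, reported as 514, was 816 with library totals, 284 with a replicate block within each age, 465 with a plain replicate block and 1433 with DESeq2. Without single libraries it ran from 65 to 1636. It fell to 169 and 116 without replicates 1 and 3 with CHX at 6 hpf, and to 261 and 65 without replicates 2 and 3 of 10 pg at 6 hpf. Without replicate 1 of 10 pg at 6 hpf it was 859. At 5 hpf it was 141, 845 and 138 without replicates 1, 2 and 3 of 10 pg, and 117, 1636 and 131 without those with CHX. The cause was not tested. The replicate block changed no call among 175 named genes but that of SULF1, and the block within each age changed 6. Leaving out a library lost 8 to 16 of the calls. No call of a named gene reversed its direction under any alternative run. Neither did the medians of the Nodal-induced lists or of the genes rising and falling with age, the only list medians that were rerun. Small changes that were not called may differ in sign between scalings, and so may small medians of the other lists. Library totals moved the median over all genes from 0.12 to 0.68. Genes below 1 CPM are imprecise at these depths.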

Other observations

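Some genes went against the split by age, and the groups given here were chosen after their values were seen. Of the 6572 genes that rose in controls from 4 to 6 hpf, 110 (1.67%) were called higher with CHX. Of the 6763 that fell, 93 (1.38%) were called lower. The shares of all genes were 29.0% and 27.2%. With a symbol, at least 5 CPM and groups that do not overlap, 67 of the first set and 77 of the second remained. The first set included PAX6 (ENSDARG00000045936), a paired-box gene of the eye and brain, at 1.47, 0.607 and 1.46 CPM without CHX and 12.3, 9.87 and 6.35 CPM with it. Others were TTN (ENSDARG00000000563), titin, with a log2 change of 2.49, crlf1a, a cytokine receptor-like protein, with 2.92, and sptbn5, a spectrin, with 3.34.

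In 35 libraries without CHX, 3 genes stayed below 2 CPM in each and reached 5 CPM or more in all 3 libraries with CHX at 6 hpf. They were VEGFC (14.4, 8.83 and 11.3 CPM with CHX), FST (ENSDARG00000052846; 40.0, 23.2 and 39.2 CPM) and si:dkey-65b12.6 (10.8, 10.1 and 10.7 CPM). The last of these was at 0.263, 0.773 and 0.487 CPM with 10 pg alone (4.37 ± 0.54, adjusted p = 2.83e-08). These genes, too, were picked for their values.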
